A study of Mus musculus with 17 samples.

Results

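RNA that came down with an antibody to MAEL in wild-type mouse testis was set against testis mRNA, transcript by transcript. The tables name 37991 Ensembl transcripts, and the comparison covers the 18286 of them that have a coding part, that is, those to which the mRNA tables give a size. The libraries are 2 long-RNA libraries from anti-MAEL immunoprecipitation (replicates a and b), 1 from rabbit IgG and 2 of mRNA (replicates a and b), out of 17 in the series. All 5 came from wild-type testis of the 129SvJae strain, with no antibody for the mRNA, and no treatment or age is given in the labels. The mRNA was extracted from a Triton lysate cleared by spinning, and the immunoprecipitates from the bound fraction. All were fragmented to 120 to 200 bp, primed at random and made into libraries that do not keep the strand. Extraction and antibody therefore differ together, and their shares in any difference from mRNA cannot be told apart. How many animals gave each library is not stated, and the spread that p-values rest on is that of these libraries alone and may be technical.

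As background, MAEL (Maelstrom) is a germ cell protein that gathers in nuage, the cytoplasmic granules in which PIWI proteins and piRNA precursors meet, and it is needed to silence transposons. RNA immunoprecipitation pulls a protein down with the RNA attached to it. Some RNA always comes down with beads and antibody alone, and a library made with unspecific IgG shows that background. Many mRNAs of late male germ cells are stored before they are translated, and ribosome footprints show which mRNAs are in translation. In whole testis, fewer cells that hold a transcript and less of it per cell cannot be told apart.

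The files give transcripts by Ensembl ID alone, and 0 of these IDs occur in the reference tables at hand. Gene names, testis marker genes, gene lists and the Mael transcript were therefore not analysed here, and transcripts are described by their sizes and by their levels in each assay.

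Coding transcripts held 2949268 and 6576794 counts in the anti-MAEL libraries, 4831350 with IgG, and 15372210 and 6732376 in mRNA. A single transcript, ENSMUST00000038863, filled much of every immunoprecipitate. It took 1589199 and 2634837 counts with anti-MAEL, which was 53.9% and 40.1% of coding counts, and 2009946 with IgG, 41.6%, against 235 and 139 counts in mRNA. No other transcript took more than 0.377% of coding counts in an immunoprecipitate, with ENSMUST00000038863 kept in the total. Levels are therefore given as scaled CPM, the CPM taken over library sizes that edgeR's TMM factors have corrected, which lowers the weight of such a transcript. Its scaled log2 fold change over mRNA was 15.65 ± 0.432 (SE) with anti-MAEL and 15.21 ± 0.434 with IgG (edgeR quasi-likelihood, adjusted p = 3.75e-08 and 5.16e-08). Anti-MAEL over IgG gave 0.44 ± 0.305 for it (edgeR quasi-likelihood, adjusted p = 0.998).

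The first question was which coding transcripts anti-MAEL carried more or less than their mRNA level. Of 12431 transcripts with enough counts to test, anti-MAEL gave 4052 (32.6%) that were higher than in mRNA and 3656 (29.4%) that were lower, by edgeR's quasi-likelihood test at a Benjamini-Hochberg adjusted p of 0.05. The median log2 fold change was 2.48 among the higher ones and -1.66 among the lower ones. Fold sizes were unequal, with 2470 of the higher and 1342 of the lower transcripts past 4-fold. Both anti-MAEL libraries were above both mRNA libraries for 5074 transcripts (40.8% of those tested), 4011 of them called higher, and below both for 5118 (41.2%), 3655 of them called lower. Over all tested transcripts the middle 90% of log2 fold changes lay between -2.78 and 5.33, with groups at 0 counts set to 3 counts per library. With plain library totals in place of TMM, the median of all tested transcripts was -0.91 instead of -0.02, and 2590 were higher and 6067 lower, so that 29.9% of calls were higher instead of 52.6%.

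IgG gave calls of much the same number. Against the same mRNA, 3314 transcripts (26.7%) were higher with IgG and 2967 (23.9%) lower. Of the 4052 that were higher with anti-MAEL, 3175 were also higher with IgG, which is 78.4% of the anti-MAEL list and 95.8% of the IgG list. Of the 3656 that were lower, 2714 were lower with IgG, 74.2% of the anti-MAEL list and 91.5% of the IgG list. Both comparisons use the same mRNA libraries, so chance departures of the mRNA enter both alike. The direct test of anti-MAEL over IgG does not use them, except for the shared estimate of spread. It called 108 transcripts (0.869%) higher and 0 (0%) lower by edgeR's quasi-likelihood test. Before adjustment 605 higher and 118 lower ones had a p under 0.05, and by DESeq2 149 passed as higher and 1 as lower. The log2 ratio of anti-MAEL to IgG lay within 1 of zero for 10942 transcripts, 88.0% of those tested, with a median SE of 0.44. The IgG group is 1 library, and its spread was not measured but taken to be like that of the others.

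These 3 tests sort the transcripts into classes. Of those higher than mRNA, 106 were also higher than IgG, and 3142 were higher than mRNA in both immunoprecipitates with no call between them. A further 804 were higher than mRNA with anti-MAEL while IgG was not called higher and the direct test made no call. Among those lower than mRNA, 2712 were lower in both with no call between them, 942 were lower with anti-MAEL while IgG was not called lower, and 2 were higher than IgG. For the 942, being called with anti-MAEL alone is no evidence of a difference from IgG, since the direct test called none of them. Their median log2 ratio of anti-MAEL to IgG was -0.39, and that of the 804 was 0.70, against 0.01 over all tested transcripts. For the 3142 and the 2712 the medians were -0.03 and 0.02. The calls that formed the classes used these same libraries, so the median ratios to IgG follow in part from that choice. They describe the classes and test nothing.

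**Figure D1:**
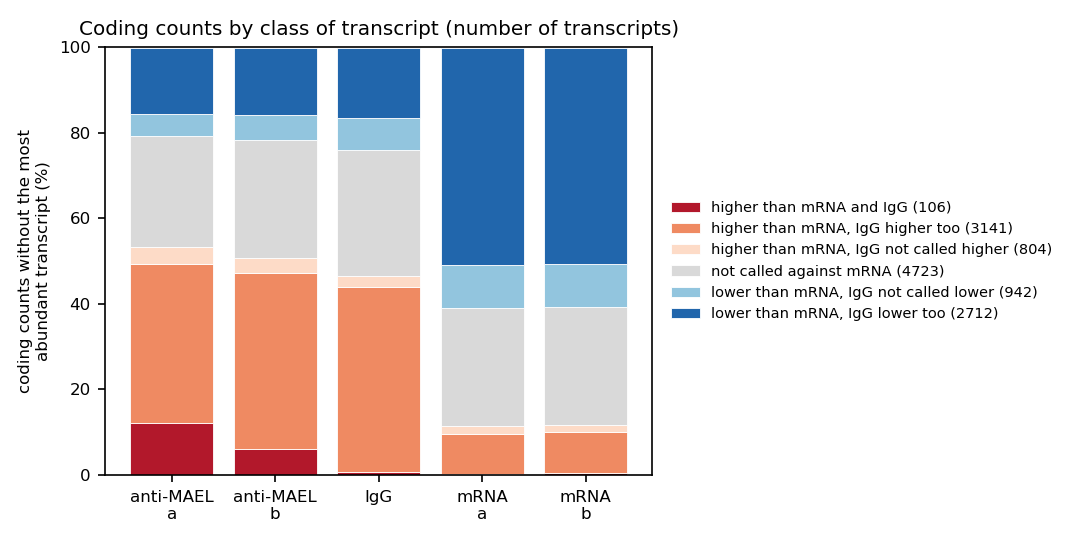
Share of coding counts, in percent, taken by each class of transcripts in the 5 libraries, with ENSMUST00000038863 left out of the totals and the legend giving the number of transcripts. The anti-MAEL and IgG bars look alike but for the red class, at 12.2% and 6.12% with anti-MAEL against 0.599% with IgG, while the dark blue class takes about the same share of the 3 immunoprecipitates and over 50% of both mRNA libraries.

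The plot of coding counts by class shows how much of each library these classes made up, with ENSMUST00000038863 set aside. The 2712 transcripts that were lower in both took 15.5% and 15.6% of the anti-MAEL libraries and 16.5% of the IgG library, against 50.8% and 50.5% of the mRNA libraries. The transcripts higher in both took 37.2% and 41.1% with anti-MAEL and 43.2% with IgG, against 9.31% and 9.53% in mRNA. The 106 transcripts higher than mRNA and IgG were a small part of every library but the anti-MAEL ones. They took 12.2% (exact 95% interval 12.1 to 12.2) and 6.12% (6.10 to 6.14) with anti-MAEL, 0.599% (0.590 to 0.608) with IgG, and 0.354% (0.351 to 0.357) and 0.414% (0.410 to 0.419) in mRNA. The intervals cover counting error only, because no molecular identifiers tell PCR copies apart. The classes were formed on these same libraries, so the shares describe them and test nothing.

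The counted part of a transcript differs between the tables. The immunoprecipitate tables give the whole length of a transcript, with a median of 1923 nt, and the mRNA tables a size that fits the number of codons less 20. In 2023 transcripts the whole length minus 3 times that size was exactly 60 nt, and the smallest such difference was 59 nt. The median coding part was 975 nt, and the part outside it, the untranslated ends, made up 38.5% of a transcript at the median. None of the 19705 transcripts without a coding part had mRNA counts. If mRNA was counted over that stretch alone, reads from the ends add to an immunoprecipitate count and not to an mRNA count. Where transcripts shared coding size and mRNA counts but differed in whole length, immunoprecipitate counts differed in 31 of 35 sets.

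The calls followed that length. Among the 1378 tested transcripts with at least 75% of their length outside the coding part, 60.3% were higher with anti-MAEL than in mRNA and 7.26% were lower. Among the 3478 with less than 25% outside, 25.5% were higher and 43.2% lower. The median log2 fold change was 1.40 in the first group and -0.66 in the second. IgG followed the same order, with 51.3% higher and 5.30% lower in the first group and 21.5% higher and 35.6% lower in the second, and it had its lower median, -0.59, in the second group too.

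Counts were then set on the length that was counted, whole length for the immunoprecipitates and 3 times the table's size for mRNA. Per length, anti-MAEL gave 3749 higher (30.2%) and 3410 lower (27.4%) of 12426 transcripts, and IgG gave 3110 (25%) higher and 2719 (21.9%) lower. The order by length outside the coding part turned round, with a median of -0.28 at 75% and over and 0.16 under 25% for anti-MAEL, and -0.46 and 0.19 for IgG. Of the 4052 transcripts higher by counts, 3228 were higher per length, 756 were not called, 63 were lower and 5 had too short a coding part to be tested. Of the 3656 lower by counts, 2660 were lower per length, 996 were not called and 0 were higher. In transcripts annotated with no ends outside the coding part, where both tables cover nearly the same stretch, 193 of 683 (28.3%) were higher with anti-MAEL and 255 (37.3%) lower by counts, against 32.6% and 29.4% of all tested. IgG gave 134 higher (19.6%) and 234 lower (34.3%) there, against 26.7% and 23.9% of all tested. Per length the same set gave 260 higher (38.1%) and 163 lower (23.9%) with anti-MAEL, against 30.2% and 27.4% of all tested. IgG gave 200 higher (29.3%) and 148 lower (21.7%) per length, against 25% and 21.9%. Which direction was more common in this set therefore depended on the scaling. Nearly all of the 106 transcripts higher than mRNA and IgG kept their call against mRNA per length, 104 of them.

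**Figure D2:**
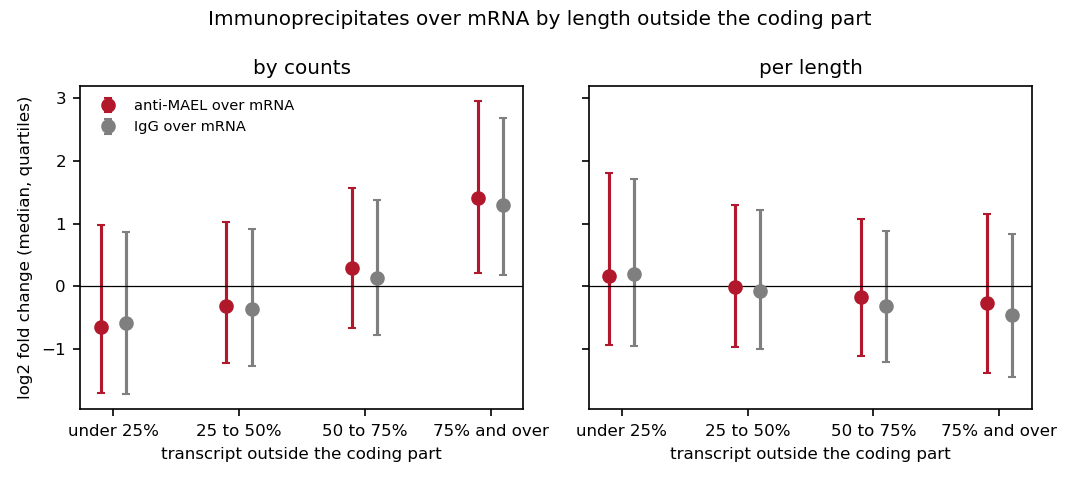
Log2 fold change over wild-type mRNA of anti-MAEL (red) and IgG (grey) for tested transcripts grouped by the share of their length outside the coding part, by counts (left) and per counted length (right); points are medians and bars run between the quartiles. By counts the anti-MAEL median climbs to 1.40 in the last group, and per length it stands at -0.28 there, with IgG beside it throughout.

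Ribosome footprints, read in 2 other wild-type libraries that no test here uses, showed which transcripts were in translation. The tested transcripts were ranked by footprint CPM per kb of coding window and cut into 5 groups of equal size. In the lowest group, with a median of 0.349 CPM per kb, 66.9% were higher with anti-MAEL than in mRNA and 5.31% lower. In the highest group, with a median of 164 CPM per kb, 14.5% were higher and 55.9% lower. IgG gave 55.8% higher and 3.50% lower in the lowest group and 12.3% higher and 49.5% lower in the highest. The same order held per length, with 65.4% higher with anti-MAEL in the lowest group and 57.6% lower in the highest. Footprints move with the mRNA level, which is the denominator here, at a median of 0.677 scaled CPM per kb in the lowest group and 95.4 in the highest, and its part in this order was not tested. The filter on counts also let a transcript with little mRNA be tested through its immunoprecipitate counts alone. How much of the order comes from that was not tested either. Anti-MAEL over IgG, which has no mRNA in it, had medians of 0.13 in the lowest group and -0.02 in the highest. There, 41 (1.65%) and 11 (0.442%) transcripts were higher than IgG, against 0.869% of all tested.

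**Figure D3:**
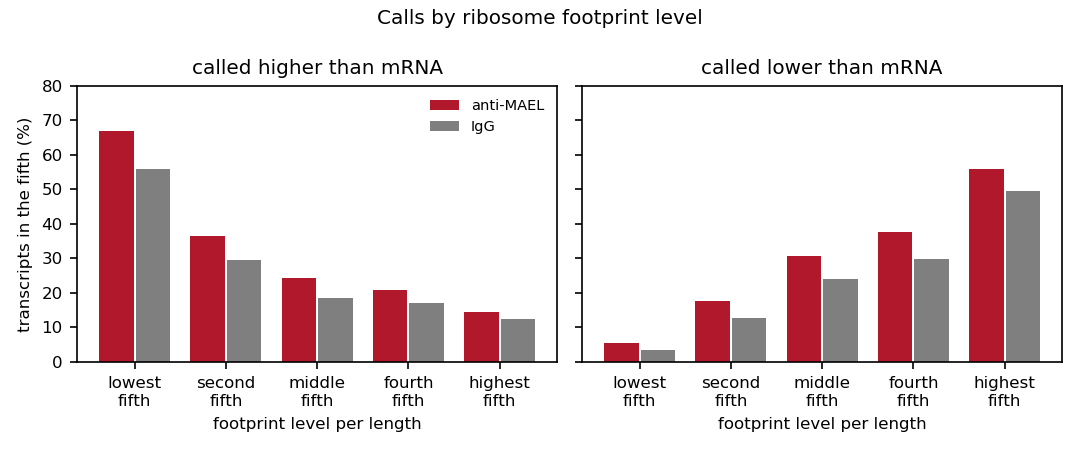
Percent of transcripts called higher (left) or lower (right) than wild-type mRNA with anti-MAEL (red) and with IgG (grey), in 5 groups of equal size ordered by ribosome footprint level per length. Higher calls with anti-MAEL fall off over the groups from the lowest, at 66.9%, to the highest, at 14.5%, and lower calls climb to 55.9%, with the IgG bars following.

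Levels were also less spread in the immunoprecipitates. The 90th percentile of scaled CPM per kb was 112-fold above the 10th with anti-MAEL and 118-fold with IgG, against 199.6-fold in mRNA, over the transcripts tested. Low levels were measured less well in the immunoprecipitates. There, 3 counts stand for 1.55 and 0.529 scaled CPM with anti-MAEL and 0.710 with IgG, against 0.139 and 0.308 in mRNA. The part of depth, of the counted stretch and of the filter in this difference was not tested.

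Single transcripts show each class, and their levels are drawn in the plot of named transcripts. ENSMUST00000166737, 4301 nt long with 76.4% outside its coding part, had the largest fitted fold change over mRNA in the class higher than mRNA and IgG. Where a group is at 0 counts such a rank depends on the fit, and the data give only a bound. Its counts were 1166 and 1526 with anti-MAEL, 153 with IgG, and 0 and 0 in mRNA. All immunoprecipitates were above mRNA, and both anti-MAEL libraries, at 604 and 269 scaled CPM, were above the 36.2 of IgG. Set against a floor of 3 counts per library, anti-MAEL was at least 1951-fold higher than mRNA by counts, and IgG at least 162-fold higher. The mRNA counts appear to leave out the ends of the transcript, so these are not bounds per length. The fitted log2 fold change of anti-MAEL over mRNA was 14.16 per length, against 14.87 by counts. Its log2 fold change of anti-MAEL over IgG was 3.58 ± 0.519 (SE; edgeR quasi-likelihood, adjusted p = 0.0118). This transcript gave 0 and 0 footprint counts in the wild-type libraries, 3366 and 608 counts in wild-type small RNA of 15 to 50 nt, and 191435 in the anti-MAEL immunoprecipitate of that size.

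ENSMUST00000037996, of 618 nt, had the largest fitted fold change among the transcripts that IgG carried as well. Its bound is below the measured ratio of ENSMUST00000038863, 46504 (counting interval 42022 to 51603), so the order of these 2 is not settled. Anti-MAEL gave 2735 and 11546 counts and IgG 6379, against 0 and 0 in mRNA. By counts, anti-MAEL was at least 7718-fold and IgG at least 6751-fold higher than mRNA. With 47.6% of the transcript outside the coding part, these are not bounds per length either. The fitted log2 fold change of anti-MAEL over mRNA was 16.75 per length, against 16.86 by counts. The scaled levels of 1416 and 2038 CPM with anti-MAEL lay on both sides of the 1510 of IgG. Anti-MAEL over IgG was 0.19 ± 0.287 on the log2 scale (SE; edgeR quasi-likelihood, adjusted p = 0.998). Wild-type small RNA held 0 and 0 counts of it.

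Among transcripts lower than mRNA in both immunoprecipitates, ENSMUST00000088495 had the largest fitted fall. It is 672 nt long with no part outside the coding one, and its counts were 0 and 0 in the anti-MAEL libraries and 1 in IgG, against 2025 and 810 in mRNA. The fall against mRNA was at least 85.1-fold with anti-MAEL, and the ratio of IgG to mRNA was 0.00261 (counting interval 6.61e-05 to 0.0146). It was translated, with 681 and 457 footprint counts. ENSMUST00000037708, of 2464 nt, had the largest fitted fall with anti-MAEL where IgG was not called lower, at 1 and 2 counts with anti-MAEL, 8 with IgG, and 107 and 56 in mRNA. Its ratio of anti-MAEL to mRNA was 0.0758 (counting interval 0.0155 to 0.225), or -3.70 ± 0.661 as a fitted log2 value (SE; adjusted p = 0.000743 by edgeR's quasi-likelihood test). With library totals IgG was called lower than mRNA too (log2 fold change -2.19, adjusted p = 0.00787, against -1.49 and 0.0654 with TMM, by edgeR's quasi-likelihood test), which takes it out of that class. Anti-MAEL over IgG gave -2.21 ± 0.919 for it and did not pass (edgeR quasi-likelihood, adjusted p = 0.754).

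The 2 largest ratios of anti-MAEL to IgG among called transcripts of at least 5 scaled CPM rested on few counts. ENSMUST00000062945 had 25 and 49 counts in the anti-MAEL libraries, 0 in IgG, and 5 and 3 in mRNA. It was at least 15.2-fold higher than IgG, and 38.1-fold higher than mRNA (counting interval 18.4 to 91.5). ENSMUST00000040059 had 49 and 68 counts in the anti-MAEL libraries, 1 in IgG, and 9 and 1 in mRNA, a ratio to IgG of 65.0 (counting interval 11.4 to 2590). Both lost the call against IgG without either anti-MAEL library, with adjusted p between 0.0527 and 0.104 by edgeR's quasi-likelihood test. For ENSMUST00000040059 the fitted log2 fold change was 5.59 and 6.68 in those fits, against 6.16 with all libraries.

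**Figure D4:**
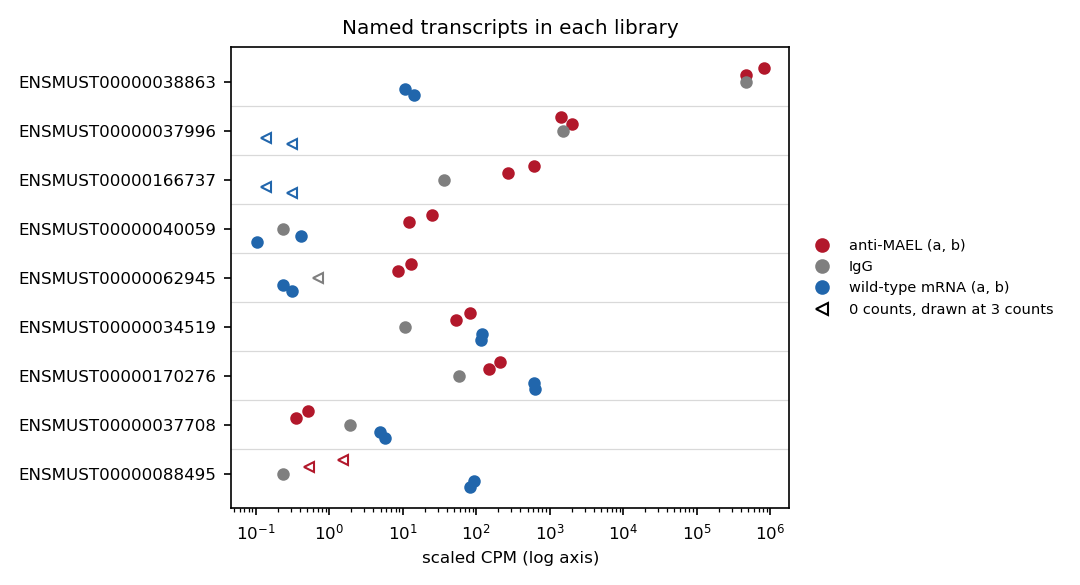
Scaled CPM on a log axis of the 9 transcripts named in the text, in anti-MAEL a and b (red), IgG (grey) and mRNA a and b (blue); open triangles mark libraries with 0 counts, drawn at the level of 3 counts. ENSMUST00000038863 and ENSMUST00000037996 have IgG among or beside the anti-MAEL points, while ENSMUST00000166737 has IgG at 36.2, below the anti-MAEL levels of 604 and 269.

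Some transcripts had no counts in both mRNA or both anti-MAEL libraries. With 0 counts in both mRNA libraries and at least 5 scaled CPM in both anti-MAEL libraries there were 73 transcripts. IgG held counts of all 73, at 5 scaled CPM or more for 63 of them. No footprint counts in wild type were found for 59 of the 73, and for 5.94% of all tested transcripts. The reverse, 0 counts in both anti-MAEL libraries and at least 5 scaled CPM in both mRNA libraries, held for 12 transcripts. IgG had 0 counts for 8 of these, and all 12 had at least 10 footprint counts in both libraries. Both sets were picked by their mRNA counts, with which footprints move, so their footprint counts are no separate result on translation. Of the 12, 9 were annotated with no part outside the coding one, which is 75% against 11.1% of all coding transcripts. Of the 73, only 1 was (1.37%), and their median length was 1480 nt with a median coding part of 618 nt. No source used here states how reads that match several places were treated. The part of that, and of the stretch counted in each kind of table, in these zeros was not tested.

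The 106 transcripts higher than both mRNA and IgG made up 98 distinct sets of counts, so some share their reads. Their median log2 fold change over mRNA was 4.97 with anti-MAEL and 0.46 with IgG, and over IgG it was 3.69 (quartiles 3.01 and 4.61). At the median they were 1873 nt long, against 2298 nt over all tested transcripts, with 44.0% outside the coding part against 42.0%. IgG was called above mRNA for 33 of them and below mRNA for 10, against 26.7% and 23.9% of all tested transcripts. It was not called for 63 of them. Footprint levels had medians of 4.23 and 5.41 CPM per kb in the wild-type libraries against 14.8 and 15.5 over all tested transcripts. The 3142 transcripts that IgG carried too had 2.56 and 4.08, and the 804 with IgG not called higher 5.34 and 5.88. The median mRNA level of the 106 was 14.6 scaled CPM per kb, against 12.2 over all tested transcripts. In the 3142 it was 3.74, and in the 804 it was 4.66. No footprint counts were found for 20 of the 106 (18.9%), against 17.5% of the 3142 and 5.94% of all tested.

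In those 10, anti-MAEL and background went opposite ways against mRNA, as the calls that picked them require. That their adjusted p lie under 0.05 follows from the same choice. The IgG side is a single library, with 8 to 116 counts of each. With anti-MAEL they had 27.95 to 492 scaled CPM in replicate a and 19.2 to 275 in replicate b, with medians of 85.9 and 50.9. With IgG they had 1.89 to 27.5, with a median of 11.6, and in mRNA 5.43 to 48.9 and 6.58 to 78.2, with medians of 30.3 and 27.2. Log2 fold changes over mRNA were 0.94 to 2.68 with anti-MAEL and -2.62 to -1.08 with IgG, and anti-MAEL over IgG was 2.28 to 3.97 (edgeR quasi-likelihood, adjusted p from 0.00266 to 0.0427). Per length they were 0.95 to 3.25 over mRNA with anti-MAEL. Among them, 4 transcripts of nearly the same length and coding size had nearly the same counts and may be copies that share reads.

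The 2 transcripts lower than mRNA and higher than IgG were picked out after their values were seen. ENSMUST00000034519 had 82.8 and 53.5 scaled CPM with anti-MAEL, 10.9 with IgG, and 122 and 115 in mRNA. Its log2 fold changes were -0.82 ± 0.265 over mRNA and 2.63 ± 0.395 over IgG (SE; edgeR quasi-likelihood, adjusted p = 0.0208 and 0.00994). ENSMUST00000170276 had 213 and 149 scaled CPM with anti-MAEL, 58.2 with IgG, and 621 and 637 in mRNA, with log2 fold changes of -1.80 ± 0.236 over mRNA and 1.63 ± 0.310 over IgG (SE; edgeR quasi-likelihood, adjusted p = 9.40e-05 and 0.0417). For both, anti-MAEL lay between IgG and mRNA in every library. Per length the first was no longer called against mRNA (log2 fold change -0.52; edgeR quasi-likelihood, adjusted p = 0.115), and without anti-MAEL replicate b it was not either (adjusted p = 0.230 by the same test). Its call against IgG was lost without anti-MAEL replicate a (edgeR quasi-likelihood, adjusted p = 0.0529). Per length the fall of the second was -0.89 (edgeR quasi-likelihood, adjusted p = 0.00849). The second lost its call against IgG without anti-MAEL replicate a or b, with library totals, with DESeq2's size factors and per length (edgeR quasi-likelihood, adjusted p = 0.05003 to 0.257 over these).

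The class higher than mRNA and IgG was rich in small RNA. Median levels of wild-type small RNA of 15 to 50 nt were 196 and 191 CPM per kb in replicates a and b, against 1.95 and 2.998 over all tested transcripts. In each replicate 81 of the 106, 76.4%, lay among the top 10% of tested transcripts. In the size-selected anti-MAEL immunoprecipitates, which have 1 library each and no IgG of their size, medians were 259.7 CPM per kb at 15 to 50 nt and 183 at 50 to 150 nt, against 0.523 and 2.79 over all tested transcripts. The 3142 transcripts that IgG carried too had medians of 0.997 and 1.85 CPM per kb in wild-type small RNA, and 10.2% of them lay in the top 10%. The 804 higher than mRNA with IgG not called higher had 2.13 and 3.15 CPM per kb, with 16.0% and 14.7% in the top 10%. Small RNA counts of coding transcripts do not tell piRNAs from fragments of mRNA, and whether these transcripts overlap piRNA loci was not tested.

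The anti-MAEL libraries differed from each other in this class. Replicate a was above replicate b in scaled CPM for 105 of the 106 transcripts, with a median log2 ratio of 0.84 (quartiles 0.64 and 1.05). Over the 8877 tested transcripts with at least 10 counts in both, replicate a was above b for 51.8%, with a median of 0.02. The median was 0.36 for the transcripts higher than mRNA with IgG not called higher, -0.03 where IgG was higher too, and -0.18 for those lower than mRNA with IgG not called lower. Without replicate a, 63 transcripts were higher than mRNA and IgG, and without replicate b, 89.

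**Figure D5:**
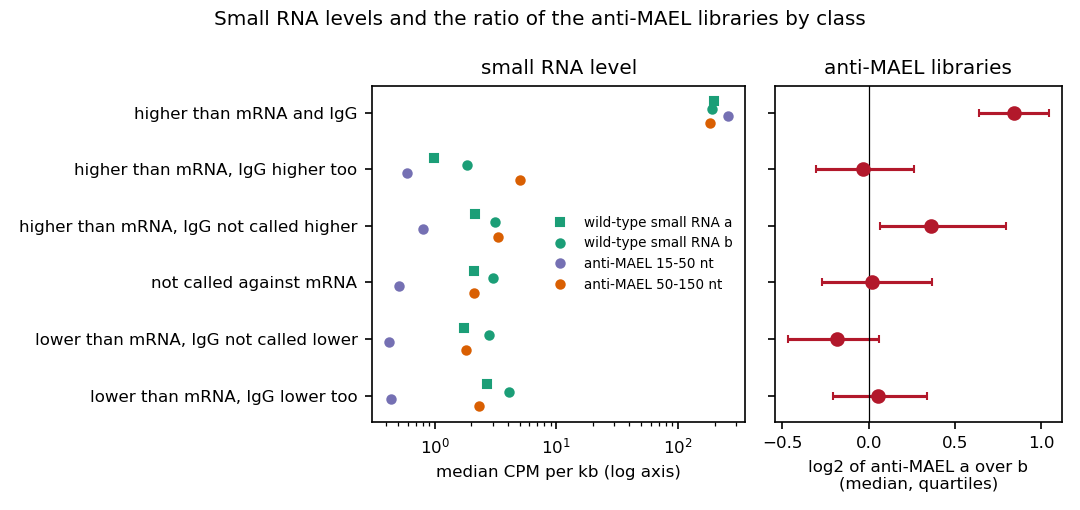
Left, median small RNA level in CPM per kb on a log axis for each class of transcripts, in wild-type small RNA (green) and in the anti-MAEL immunoprecipitates of 15 to 50 nt (purple) and 50 to 150 nt (orange); right, log2 ratio of scaled CPM in anti-MAEL replicate a over b, with points at the median and bars between the quartiles. The class higher than mRNA and IgG stands apart in both panels, at 183 to 259.7 CPM per kb on the left and at 0.84 on the right.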

How the data were processed

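Each library has its own table of counts. The authors deposited raw counts per transcript, not normalized, with a size column, made, per the submitters' processing notes, with build mm9 and with TopHat2 2.0.7, Bowtie2 2.0.6 and CASAVA 1.8 in roles not stated. The sizes, a column of other values named so per the file headers of the immunoprecipitates, were read from their values as whole length in nt there and as codons less 20 in the deposited mRNA tables. The 5 libraries of the tests do not keep the strand, so their counts cannot set antisense reads apart. For the other libraries no source used here says whether strand was used. Counts of antisense, overlapping and near-identical transcripts are therefore uncertain.

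The 5 libraries were fitted together over coding transcripts with edgeR 4.0.16 in R 4.3.3 (quasi-likelihood test, TMM, filterByExpr, group as the only term), with Benjamini-Hochberg adjustment over all transcripts tested. The fit was tested on simulated data for anti-MAEL against mRNA only, with far fewer changed transcripts than were called here. The tests that use IgG were not checked that way. The chi-square statistic between replicates was 26.0 per degree of freedom for anti-MAEL (11.9 without ENSMUST00000038863) and 24.2 for mRNA over transcripts with at least 20 counts. Replicates therefore differed by more than counting error, and each was kept as its own library. A group at 0 was set to 3 counts per library for fold bounds, and counting intervals are at 95%. Footprint, small RNA and size-selected levels are CPM of coding counts per kb.

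Named transcripts have the largest fitted fold change over mRNA in their class among calls kept without each anti-MAEL and mRNA library, with no overlap of libraries and at least 5 scaled CPM; 2 more lead the ratio to IgG. Members, classes and tests were chosen with earlier results of these data known. Alternatives were DESeq2 1.42.0, other scalings, no filter, an offset per length, and fits without single libraries. Mael-/- libraries were not used here. Python 3.11.15 with pandas 2.3.3, scipy 1.17.1 and matplotlib 3.10.9 did the rest.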

Additional observations from a re-analysis of the deposited data

How the results depend on the processing

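The counts of calls were within 1.5 times of those reported except as follows. With library totals, 2590 transcripts were higher and 6067 lower with anti-MAEL than in mRNA, 4808 were lower with IgG, and 2065 and 4580 were higher and lower in both. Past 4-fold, 2470 and 1342 were higher and lower with anti-MAEL, and 2164 and 1284 with IgG. With no filter on low counts, 263 were higher and 6 lower than IgG, and 221 were higher than mRNA and IgG. DESeq2 called 1 lower than IgG. Leaving out single libraries gave 63 to 150 higher and 0 to 2 lower than IgG, and 63 to 144 higher than mRNA and IgG. The cause of these moves was not tested, other than that the 4-fold rule and the absence of a filter change which transcripts count by their construction. With the replicate letter as a replicate block in the fit of 4 libraries, 3669 were higher and 3255 lower with anti-MAEL than in mRNA. Replicates of the same letter did not deviate together (correlation of their differences 0.0069 over 12431 transcripts), so the letters were not taken as pairs. For the named transcripts, 302 of 320 fold changes under an alternative kept their direction and their side of the threshold, 13 lost the call, 1 gained it and 4 changed sign, none of the 4 past the threshold under either setting. IgG over mRNA did so for ENSMUST00000040059, at 0.057 per length and -0.77 to 1.05 without single libraries (highest without mRNA replicate a) against -0.36. Anti-MAEL over IgG changed sign for ENSMUST00000037996, at -0.084 to 0.43 without single libraries (lowest without anti-MAEL replicate b) against 0.19. It did so for ENSMUST00000038863, at -0.032 to 0.80 (lowest without anti-MAEL replicate a) against 0.44. Folds against groups at 0 counts are bounds set by depth, by counts and not per length.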
